A study of Mus musculus with 11 samples.

Results

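Smooth muscle contractile genes were followed across the 4 genotypes of a study of serum-starved mouse fibroblasts. The set was 10 genes chosen by symbol: Acta2, Actg2, Tagln, Myl9, Myh11, Tpm1, Tpm2, Cnn1, Cnn2 and Cald1. They were chosen with earlier results of these data known. All 10 were among the 21684 genes of the count table, and all 10 passed the filter on low counts that left 13332 genes for testing. Cells were NIH/3T3, an established line of mouse embryonic fibroblasts. All were plated sparsely, grown for 24 h in DMEM with 10% calf serum and then kept without serum for 24 h, a condition in which these cells stop dividing and form a primary cilium. The 11 libraries came from WT cells (2 replicates) and from 3 knockout lines of NIH/3T3, Nono KO, Sox5 KO and Xap5 KO, with 3 replicates apiece. The labels name no clones, alleles or guides. Nothing in the labels says that replicates came from separate cultures, so p-values measure the spread between these libraries only. The gene called Xap5 in the labels has the mouse symbol Fam50a.

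Force in smooth muscle comes from myosin II pulling on actin filaments built of smooth muscle actins. Tropomyosins lie along these filaments, and calponin, caldesmon and transgelin bind them and restrain or stabilise them. Fibroblasts switch on many of the same genes when they become myofibroblasts, the contractile cells of wounds and fibrosis, and Acta2 is the usual marker of that state. Transcription of many of these genes depends on serum response factor, SRF, which binds the CArG box and is assisted by myocardin and by the actin-sensing coactivators Mrtfa and Mrtfb.

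Library totals ran from 30205878 to 43498383 counts. Mitochondrial genes took 6.2% to 6.28% of counts in WT and 6.06% to 10.3% in the knockouts. Levels are given in CPM, the count scaled to the library's total with TMM factors. Each targeted gene was low in its own line. Fam50a stood at 62.9 to 64.8 CPM in WT and 7.49 to 7.91 CPM in Xap5 KO, and Nono at 351 to 357 CPM in WT and 27.6 to 34.0 CPM in Nono KO. Sox5 stood at 45.9 to 49.7 CPM in WT and 12.6 to 13.9 CPM in Sox5 KO, but it was also at 11.9 to 15 CPM in Xap5 KO and 7.01 to 8.75 CPM in Nono KO. WT libraries stood apart from every knockout library in 1 further respect. The sum of 4 genes of chromosome Y (Ddx3y, Uty, Eif2s3y and Kdm5d) was 196 to 201 CPM in WT and at most 0.390 CPM in any knockout library. A change shared by all 3 knockouts and a difference between the WT cells and the derived lines as such cannot be told apart with these groups. With no clones named, a change in 1 knockout and a trait of that line cannot be told apart either. In bulk RNA, fewer cells with a transcript and less of it per cell cannot be told apart either.

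Most of the contractile genes, 8 of 10, rose in all 3 knockouts relative to WT. A gene was called when edgeR's quasi-likelihood F test gave an adjusted p under 0.05, after Benjamini-Hochberg correction over all tested genes. In Xap5 KO 8 members were called higher and 0 lower, where 23.2% of all tested genes were called higher and 22.3% lower. In Nono KO 9 were called higher and 0 lower, against 23.5% and 25.1% of all tested genes. In Sox5 KO 8 were called higher and 1 lower, against 30.6% called higher and 30.3% called lower among all tested genes. Acta2, Actg2, Tagln, Myl9, Tpm1, Tpm2, Cnn2 and Cald1 were the 8 members called higher in all 3, a pattern found in 8.33% of tested genes. For the same 8, all 9 knockout libraries lay above both WT libraries in CPM, as they did for 11.4% of tested genes. For Cald1 this depended on the TMM factors. Its share of all counts was 0.0821% in Sox5 KO replicate 1, below the 0.0856 and 0.0862% in WT. Counting only called rises of at least 2-fold, Xap5 KO had 5 members, Nono KO 8 and Sox5 KO 6, where 5.67%, 6.50% and 8.30% of tested genes passed. At least 2-fold higher and called in all 3 knockouts were Acta2, Actg2, Tagln, Myl9 and Tpm1, 5 of 10 members, against 1.91% of tested genes. The 3 comparisons share the same 2 WT libraries. Because the members were chosen with earlier results known, the shares of all tested genes give scale only and are not a test. Where 3 values are given below without names, they are for the Xap5, Nono and Sox5 knockouts in that order.

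The median log2 fold change of the 10 members was 2.56 in Nono KO, where the median of all tested genes was -0.02. It was 1.48 in Xap5 KO (all genes 0.00) and 1.48 in Sox5 KO (all genes -0.01). Actg2, Cnn1 and Myh11 were under 1 CPM in WT, and Cnn1 and Myh11 passed the filter only with the help of knockout libraries. The other 7 members were at 1 CPM or more in every group, and all 7 were called higher in each knockout. Together the 10 genes took 0.162 and 0.167% of all counts in the WT libraries. They took 0.517, 0.544 and 0.509% in Sox5 KO, 0.518, 0.548 and 0.486% in Nono KO and 0.444, 0.416 and 0.395% in Xap5 KO. Acta2 alone was 9.20 and 9.48% of the members' counts in WT and 53.8, 54.2 and 51.9% in Sox5 KO.

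**Figure D1:**
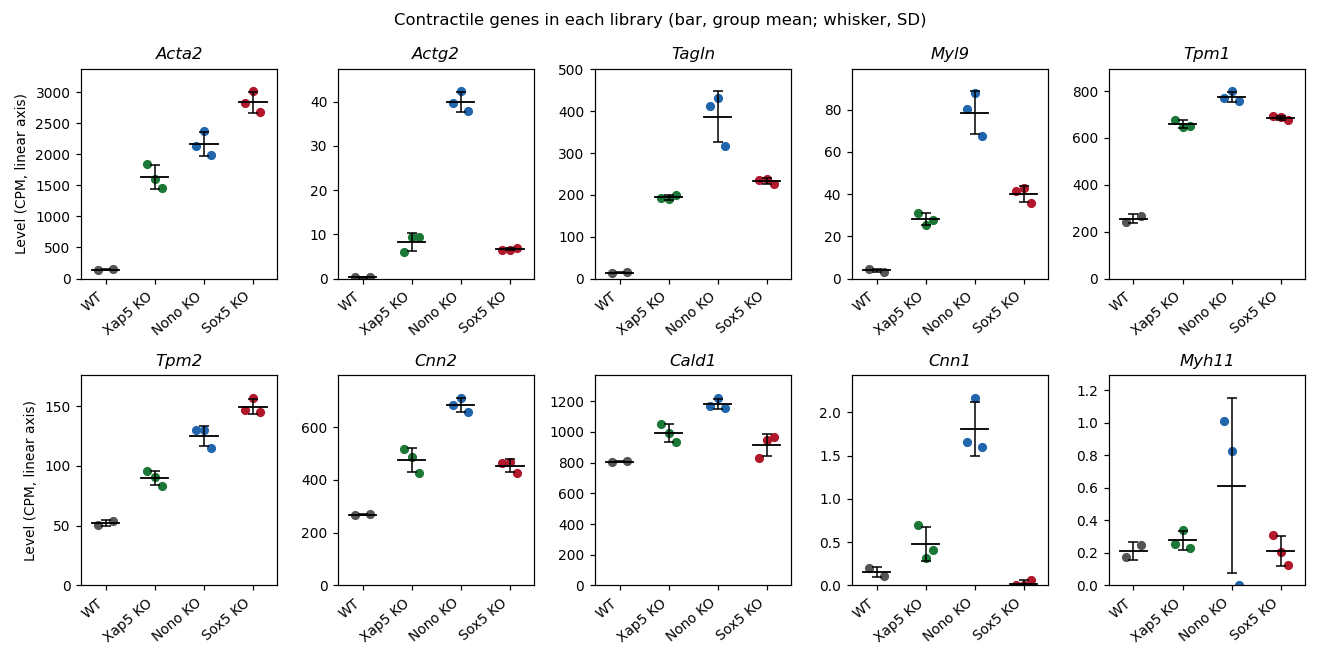
Level of each of the 10 contractile genes in CPM (linear axes from 0) in every library, by genotype (WT n = 2, knockouts n = 3); points are libraries, bars group means and whiskers SD. In 8 of 10 panels all knockout libraries lie above both WT libraries, Acta2 and Tpm2 are highest in Sox5 KO, and Cnn1 and Myh11 stay at 2.17 CPM or less.

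The promoter sequences of the members are shown because the CArG box is the element that SRF reads, and most of the members rose in all 3 knockouts. RefSeq promoters, 8 in all, were matched by symbol for 7 of 10 members, Acta2, Cnn1, Cnn2, Myl9, Tpm1, Tpm2 and Cald1 (with 2 starts), on build GRCm38.p6, an older build than the GRCm39 named in the submitters' processing notes. The count table itself carries no coordinates. The 250 bases before each start were searched for the CArG box, CC and GG around 6 bases that are A or T, and for the same element with 1 G or C among those 6 bases. Both forms read the same on either strand. An exact CArG box was found in Cnn2 and Myl9, 2 of 7 members. It was found in 1.62% of 27025 genes, or 1.47% of their 32851 promoters of the same length. The form with 1 G or C was found in Acta2 and Myl9, and in 8.33% of all genes, or 7.24% of all promoters. Each sequence below runs 5′ to 3′ and ends at the base before the start, with the CArG forms in capitals. Cnn1 is shown for comparison as a member with no match. It did not rise in all 3, whereas Tpm1, Tpm2 and Cald1, also without a match, were called higher in all 3.
Acta2 (chr19:34255374-34255623, minus strand): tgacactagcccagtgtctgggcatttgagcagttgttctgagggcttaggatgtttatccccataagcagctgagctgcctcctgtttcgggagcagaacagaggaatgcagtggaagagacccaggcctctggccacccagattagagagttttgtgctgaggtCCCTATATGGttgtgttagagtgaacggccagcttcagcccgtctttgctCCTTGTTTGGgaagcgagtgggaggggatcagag
Myl9 (chr2:156775214-156775463, plus strand): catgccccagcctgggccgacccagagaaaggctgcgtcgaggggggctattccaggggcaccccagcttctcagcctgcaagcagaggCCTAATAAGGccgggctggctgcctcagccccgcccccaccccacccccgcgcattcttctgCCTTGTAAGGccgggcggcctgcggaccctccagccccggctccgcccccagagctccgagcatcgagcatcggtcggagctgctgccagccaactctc
Cnn2 (chr10:79988350-79988599, plus strand): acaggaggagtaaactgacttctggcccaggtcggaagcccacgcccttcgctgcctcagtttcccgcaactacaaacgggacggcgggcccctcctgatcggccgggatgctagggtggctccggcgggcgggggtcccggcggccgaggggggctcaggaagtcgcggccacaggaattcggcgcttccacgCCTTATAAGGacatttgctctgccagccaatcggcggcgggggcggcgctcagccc
Cnn1 (chr9:22099003-22099252, plus strand): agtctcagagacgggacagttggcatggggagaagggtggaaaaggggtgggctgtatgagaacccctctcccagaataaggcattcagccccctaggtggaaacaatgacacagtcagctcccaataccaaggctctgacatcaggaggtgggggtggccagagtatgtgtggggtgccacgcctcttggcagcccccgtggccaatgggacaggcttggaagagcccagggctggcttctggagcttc
The capitals in Acta2 lie 84 to 75 and 34 to 25 bases before the start. In Myl9 the exact box CCTAATAAGG lies 161 to 152 bases before it and CCTTGTAAGG 99 to 90 bases before it. In Cnn2, CCTTATAAGG lies 56 to 47 bases before the start. The MCAT element CATTCC, the site of TEAD factors, was searched on both strands and found in Acta2, Tpm1 and Cald1 (at 1 of its 2 starts). It was found in 14.4% of all genes, or 12.6% of all promoters. Tpm1, Tpm2 and Cald1 held no CArG form in this window. A match is a string of letters and not a measured binding site, and no match says nothing of sites elsewhere.

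Both smooth muscle actins rose in every knockout. Acta2 (ENSMUSG00000035783, chromosome 19), alpha smooth muscle actin, had 139.7 and 149 CPM in WT. Xap5 KO libraries held 1849, 1605 and 1452 CPM, Nono KO libraries 2128, 2382 and 1995 CPM and Sox5 KO libraries 2823, 3018 and 2679.8 CPM. The 4 groups did not overlap. Against WT, its log2 fold change was 4.30 (SE 0.111, adjusted p = 2.49e-15) in Sox5 KO, 3.91 (SE 0.109, adjusted p = 9.04e-15) in Nono KO and 3.5 (SE 0.107, adjusted p = 3.85e-14) in Xap5 KO in edgeR's quasi-likelihood test. As folds these were 19.7 for Sox5 KO, 15 for Nono KO and 11.3 for Xap5 KO. The knockouts also differed from each other. Sox5 KO was above Nono KO, with Nono KO minus Sox5 KO at -0.39 (SE 0.0814, adjusted p = 0.000453), and Nono KO above Xap5 KO, with Xap5 KO minus Nono KO at -0.41 (SE 0.0814, adjusted p = 0.000426) by edgeR's test.

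Actg2 (ENSMUSG00000059430, chromosome 6), the gamma smooth muscle actin best known from gut and bladder muscle, was near absent in WT, with 15 and 11 counts or 0.372 and 0.250 CPM. It reached 6.56, 6.37 and 6.86 CPM in Sox5 KO, 39.6, 42.4 and 37.9 CPM in Nono KO and 5.92, 9.49 and 9.40 CPM in Xap5 KO. Nono KO libraries were far above all others, and the Xap5 KO and Sox5 KO libraries overlapped. The log2 fold change against WT was 4.40 (SE 0.262, adjusted p = 6.02e-12) in Sox5 KO, 7.00 (SE 0.256, adjusted p = 4.07e-15) in Nono KO and 4.73 (SE 0.258, adjusted p = 3.70e-12) in Xap5 KO, edgeR's quasi-likelihood test. Nono KO exceeded Sox5 KO by 2.60 (SE 0.152, adjusted p = 3.87e-12), a 6.06-fold difference, while Xap5 KO minus Sox5 KO was 0.33 (SE 0.152, adjusted p = 0.0684) by edgeR's quasi-likelihood test. That last difference was called without Xap5 KO replicate 1, at 0.51 (adjusted p = 0.00154 in edgeR's test), and when libraries were scaled by their totals, at 0.39 (adjusted p = 0.0386).

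The pair did not move in a fixed ratio. Per 100 counts of Acta2, Actg2 had 0.266 and 0.168 counts in WT, 0.232, 0.211 and 0.256 in Sox5 KO, 1.86, 1.78 and 1.90 in Nono KO and 0.320, 0.592 and 0.648 in Xap5 KO. Nono KO had the highest ratio and the only values above 1. Reads shared between close paralogs could be split by the counting. In GENCODE M21 transcripts 0% of 50-base windows of Actg2 and 0.326% of those of Acta2 occurred in transcripts of another gene. Only exact matches were searched and the counting step is not given, so how reads were split was not tested.

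Cytoplasmic actins are the main actins of fibroblasts, and Acta2 gained on them. Actb had a mean of 1372 ± 2.12 CPM in WT (SD, n = 2) and 2699 ± 139, 2396 ± 160.2 and 1871 ± 90.5 CPM in the Xap5, Nono and Sox5 knockouts (SD, n = 3 each). Actg1 had 1222 ± 44.6 CPM in WT and 2249.6 ± 142, 2586 ± 26.8 and 2419.5 ± 98.4 CPM in the knockouts in that order. Both were called higher in all 3, with log2 fold changes of 0.98, 0.80 and 0.45 for Actb and of 0.88, 1.08 and 0.99 for Actg1. Shares within a family were taken from CPM per kilobase of the longest annotated transcript. On that scale Acta2 was 5.02% ± 0.129 of actin RNA in WT (SD, n = 2), 38.6% ± 0.386 in Sox5 KO, 29.0% ± 1.11 in Nono KO and 23.8% ± 2.22 in Xap5 KO, with n = 3 for each knockout. The ranges of the 4 groups were separate. Actb went from 50.6% ± 0.891 in WT to 27% ± 0.169 in Sox5 KO, below Acta2 there. The striated actins were at the floor or near it, with Acta1 at 0.215 CPM and Actc1 at 0 CPM in WT.

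Transgelin and the myosin regulatory light chain rose beside Acta2, both most in Nono KO. Tagln (ENSMUSG00000032085, chromosome 9), transgelin or SM22, which binds actin filaments, stood at 13.6 and 14.6 CPM in WT. It stood at 236, 239 and 226 CPM in Sox5 KO, 413, 431 and 317 CPM in Nono KO and 192, 189.9 and 200.2 CPM in Xap5 KO. Nono KO replicate 3 was the lowest of its group but still above every library of the other groups. The log2 fold change against WT was 3.78 (SE 0.118, adjusted p = 7.89e-13), 4.78 (SE 0.123, adjusted p = 5.39e-14) and 4.05 (SE 0.120, adjusted p = 1.78e-13) in the Xap5, Nono and Sox5 knockouts in edgeR's quasi-likelihood test, or 13.8-fold, 27.4-fold and 16.5-fold. Nono KO exceeded Sox5 KO by 0.73 (SE 0.0858, adjusted p = 2.01e-06) by edgeR's test. Xap5 KO minus Sox5 KO was -0.27 (SE 0.0858, adjusted p = 0.0141) in the same test, and this call was lost without Sox5 KO replicate 2 (-0.25, adjusted p = 0.0524) and when libraries were scaled by their totals (-0.20, adjusted p = 0.0529).

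Tagln exons overlap Pcsk7 and Gm48529 on the opposite strand, and 58.3% of 50-base windows of its transcripts occur in another gene's, so its counts are uncertain if strand was not used. Pcsk7, a proprotein convertase gene, stood at 26.4 to 27.7 CPM in WT, 33.9 to 34.8 CPM in Sox5 KO, 29.2 to 34.8 CPM in Nono KO and 27.5 to 30.7 CPM in Xap5 KO. Its log2 fold changes of 0.08, 0.28 and 0.35 were small beside those of Tagln. Gm48529, the gene with which Tagln shared the most windows, had no row under that symbol in the count table, so no level can be given for it. Tagln2, the relative found in most cell types, rose by 1.05, 0.93 and 1.19 on the log2 scale in the Xap5, Nono and Sox5 knockouts, all called. Per length, Tagln was 7.77% ± 0.677 of transgelin RNA in WT (SD, n = 2), 38.0% ± 2.04 in Sox5 KO, 54.7% ± 2.12 in Nono KO and 36.0% ± 2.42 in Xap5 KO, with n = 3 for each knockout.

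Myl9 (ENSMUSG00000067818, chromosome 2), the myosin light chain whose phosphorylation starts contraction, stood at 4.32 and 3.29 CPM in WT. Xap5 KO libraries had 31.0, 25.3 and 27.9 CPM, Nono KO libraries 80.1, 87.9 and 67.6 CPM and Sox5 KO libraries 41.5, 42.8 and 35.9 CPM. No 2 groups overlapped, and the order was Nono KO, Sox5 KO, Xap5 KO and WT. In edgeR's quasi-likelihood test the log2 fold change against WT was 3.40 (SE 0.149, adjusted p = 3.00e-13) in Sox5 KO, 4.37 (SE 0.153, adjusted p = 1.70e-14) in Nono KO and 2.89 (SE 0.147, adjusted p = 6.80e-12) in Xap5 KO. Neighbours in the order differed too, by 0.97 (SE 0.107, adjusted p = 1.65e-07) for Nono KO minus Sox5 KO and -0.51 (SE 0.108, adjusted p = 0.000396) for Xap5 KO minus Sox5 KO, edgeR's test. Per length, Myl9 was 3.07% ± 0.685 of RNA of Myl9, Myl12a and Myl12b in WT (SD, n = 2) and 26.8% ± 1.60 in Nono KO (SD, n = 3). The smooth muscle light chain thus gained on its non-muscle relatives, although Myl12a also rose, by 1.07 (SE 0.0774, adjusted p = 3.51e-10), 1.32 (SE 0.0781, adjusted p = 9.49e-12) and 1.41 (SE 0.0784, adjusted p = 2.00e-12) on the log2 scale, edgeR's test. Myl12a and Myl12b models overlap in the annotation, so the split between them is uncertain.

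Myosin heavy chain of smooth muscle did not follow its light chain. Myh11 (ENSMUSG00000018830, chromosome 16) had 7 and 11 counts in WT, 10, 14 and 9 in Xap5 KO, 41, 34 and 0 in Nono KO, and 10, 6 and 4 in Sox5 KO. The groups overlapped, since 1 Nono KO library was at 0 and the other 2 were the highest of all. A count of 0 in that library allows up to 3 counts. Log2 fold changes of 0.38 (SE 1.13, adjusted p = 0.816), 1.52 (SE 1.14, adjusted p = 0.287) and 0.01 (SE 1.16, adjusted p = 0.996) against WT were not called in edgeR's quasi-likelihood test. The test over all 4 genotypes did not call Myh11 either (adjusted p = 0.387, edgeR's F test), and it called the other 9 members, where 82.6% of all tested genes were called. Without Nono KO replicate 3, Nono KO minus Sox5 KO was 2.09 and called (adjusted p = 0.0324, edgeR's test). The non-muscle heavy chains carried nearly all myosin II RNA, with Myh9 at 78.7% ± 0.223 in WT (SD, n = 2) and 85.3% ± 0.280 in Nono KO (SD, n = 3) per length. Myh9 was called in every knockout, with log2 fold changes of 0.40, 0.63 and -0.55. Summed per length, myosin II heavy chain RNA had a mean of 259 CPM per kilobase in WT. The means in the knockouts were 326, 371 and 170 CPM per kilobase. Myh10, the other non-muscle heavy chain, had -0.84 (SE 0.0614, adjusted p = 1.64e-10) in Sox5 KO, -0.01 (SE 0.0619, adjusted p = 0.890) in Nono KO and 0.03 (SE 0.0620, adjusted p = 0.732) in Xap5 KO as log2 fold changes by edgeR's test, and only Sox5 KO was called.

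Both tropomyosins rose in every knockout, with smaller fold changes than the smooth muscle actins and transgelin. Tpm1 (ENSMUSG00000032366, chromosome 9) stood at 241 and 268 CPM in WT, 693, 688 and 675 CPM in Sox5 KO, 771, 800.1 and 757 CPM in Nono KO and 677, 645 and 653 CPM in Xap5 KO. All knockout libraries were at least 645 CPM, and those of Xap5 KO and Sox5 KO overlapped. Its log2 fold change against WT was 1.37 (SE 0.0611, adjusted p = 1.31e-13), 1.61 (SE 0.0617, adjusted p = 8.31e-15) and 1.43 (SE 0.0613, adjusted p = 3.66e-14) in the Xap5, Nono and Sox5 knockouts, edgeR's quasi-likelihood test. Xap5 KO minus Sox5 KO was -0.06 (SE 0.0520, adjusted p = 0.350) and not called, and Nono KO was above Sox5 KO by 0.18 (SE 0.0520, adjusted p = 0.00479) by edgeR's test.

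Tpm2 (ENSMUSG00000028464, chromosome 4), beta-tropomyosin, had the same order as Acta2. It stood at 50.2 and 53.9 CPM in WT, 147, 157 and 145 CPM in Sox5 KO, 129.7, 130.1 and 115 CPM in Nono KO and 95.4, 90.9 and 83.1 CPM in Xap5 KO, with no overlap between groups. Log2 fold changes were 0.79 (SE 0.0747, adjusted p = 2.32e-08), 1.26 (SE 0.0756, adjusted p = 1.13e-11) and 1.52 (SE 0.0764, adjusted p = 3.92e-13) against WT, and -0.26 (SE 0.0643, adjusted p = 0.00140) for Nono KO minus Sox5 KO, edgeR's quasi-likelihood test. Tpm4, a tropomyosin of non-muscle stress fibres, rose most in Sox5 KO, from 387 to 391 CPM in WT to 1434 to 1541 CPM, a gain of 1.92 (SE 0.0701, adjusted p = 2.73e-15) on the log2 scale in edgeR's test. Tpm3 had log2 fold changes of 0.27, 0.28 and 0.03, the last not called. Per length, Tpm1 was 21.8% ± 1.3 of tropomyosin RNA in WT (SD, n = 2), 21.4% ± 0.407 in Sox5 KO, 34.7% ± 1.19 in Nono KO and 34.1% ± 0.968 in Xap5 KO, with n = 3 for each knockout. Tpm1 therefore gained within its family in Xap5 KO and Nono KO, while in Sox5 KO its share overlapped that of WT and Tpm4 took 62.4% ± 0.858.

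**Figure D2:**
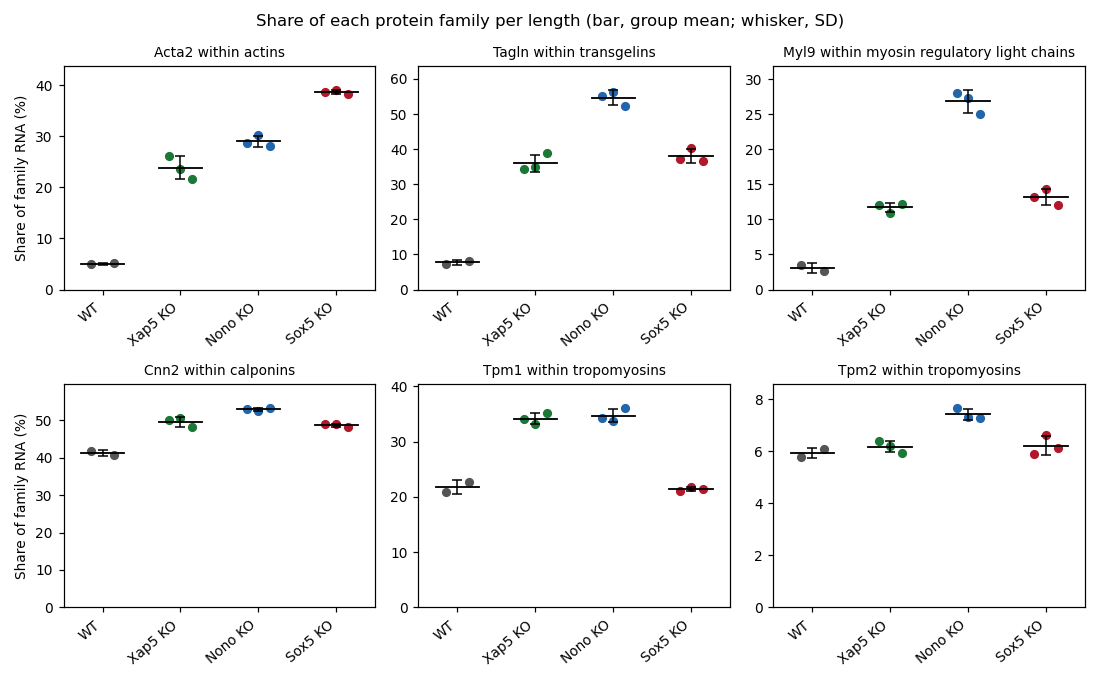
Share of each protein family's RNA (percent of summed CPM per kilobase, axes from 0) taken by 6 members in every library; points are libraries, bars group means and whiskers SD (WT n = 2, knockouts n = 3). Acta2 goes from 5.02% in WT to 38.6% in Sox5 KO, Tagln and Myl9 are highest in Nono KO, and the share of Tpm1 in Sox5 KO overlaps that in WT.

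The filament-restraining proteins behaved differently from each other. Cnn2 (ENSMUSG00000004665, chromosome 10), the calponin found widely outside muscle, stood at 267 and 270.4 CPM in WT. The knockouts had 465, 468 and 424 CPM in Sox5 KO, 684, 710.4 and 658 CPM in Nono KO and 516, 487 and 426 CPM in Xap5 KO. Nono KO was above every other library and the other knockouts overlapped. Against WT its log2 fold change was 0.83 (SE 0.0724, adjusted p = 7.19e-09), 1.35 (SE 0.0738, adjusted p = 2.57e-12) and 0.75 (SE 0.0723, adjusted p = 1.12e-08) in the Xap5, Nono and Sox5 knockouts, edgeR's quasi-likelihood test. Xap5 KO minus Sox5 KO was 0.07 (SE 0.0631, adjusted p = 0.331) and not called, but it was called without Xap5 KO replicate 3, at 0.15 (adjusted p = 0.0336, edgeR's test). Cnn3, the acidic calponin, rose by 0.34, 0.67 and 0.32 on the log2 scale, all called.

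Cnn1 (ENSMUSG00000001349, chromosome 9), the calponin restricted to smooth muscle, was the 1 member called in opposite directions. It had 8 and 5 counts in WT, 27, 13 and 16 in Xap5 KO, 67, 89 and 58 in Nono KO, and 0, 0 and 2 in Sox5 KO. Its level was thus at most 2.17 CPM in any library. Nono KO was above WT by 3.51 (SE 0.837, adjusted p = 0.00149) on the log2 scale and Xap5 KO was at 1.59 (SE 0.811, adjusted p = 0.118), not called, edgeR's quasi-likelihood test. Sox5 KO had at most 3 counts in every library, which makes it at least 1.61-fold lower than WT against a floor of 3 counts per library. By the same floor, Nono KO was at least 18.7-fold and Xap5 KO at least 4.91-fold above Sox5 KO, both called (adjusted p = 6.04e-06 and 0.000629, edgeR's test). The call of Sox5 KO against WT (adjusted p = 0.0437 in edgeR's test) was lost under limma-voom (adjusted p = 0.0954), under the replicate block (adjusted p = 0.0712) and in 6 of the 11 fits that left out 1 library. Those 6 left out WT replicate 1, Nono KO replicates 1, 2 or 3, or Sox5 KO replicates 1 or 2, with adjusted p from 0.0528 to 0.169 in edgeR's test. Xap5 KO minus Nono KO, at -1.92 (SE 0.643, adjusted p = 0.0158), was not called without Xap5 KO replicate 2 (adjusted p = 0.0526) or without Nono KO replicate 2 (adjusted p = 0.0600).

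Cald1 (ENSMUSG00000029761, chromosome 6), caldesmon, which occurs as a smooth muscle and a non-muscle form from the same gene, was abundant everywhere and rose least. It stood at 803 and 811 CPM in WT, 833, 946 and 969 CPM in Sox5 KO, 1171, 1221 and 1158 CPM in Nono KO and 1053, 991 and 932 CPM in Xap5 KO. Only the Nono KO libraries were separate from both other knockouts. The log2 fold changes were 0.30 (SE 0.0681, adjusted p = 0.00118), 0.55 (SE 0.0686, adjusted p = 9.08e-07) and 0.18 (SE 0.0679, adjusted p = 0.0252) in the Xap5, Nono and Sox5 knockouts, edgeR's quasi-likelihood test. The last call was lost without WT replicate 1 (0.17, adjusted p = 0.144), WT replicate 2 (0.19, adjusted p = 0.104), Sox5 KO replicate 2 (0.16, adjusted p = 0.0784) or Sox5 KO replicate 3 (0.14, adjusted p = 0.110), and on library totals (0.07, adjusted p = 0.371). Xap5 KO minus Sox5 KO, at 0.12 (SE 0.0605, adjusted p = 0.105), was not called by edgeR's test. It was called without Xap5 KO replicate 3 (0.16, adjusted p = 0.0319), without Sox5 KO replicate 3 (0.16, adjusted p = 0.0498) and on library totals (0.18, adjusted p = 0.0104). Gene counts do not separate the forms of Cald1 or of Tpm1, which have 18 and 21 annotated transcripts.

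**Figure D3:**
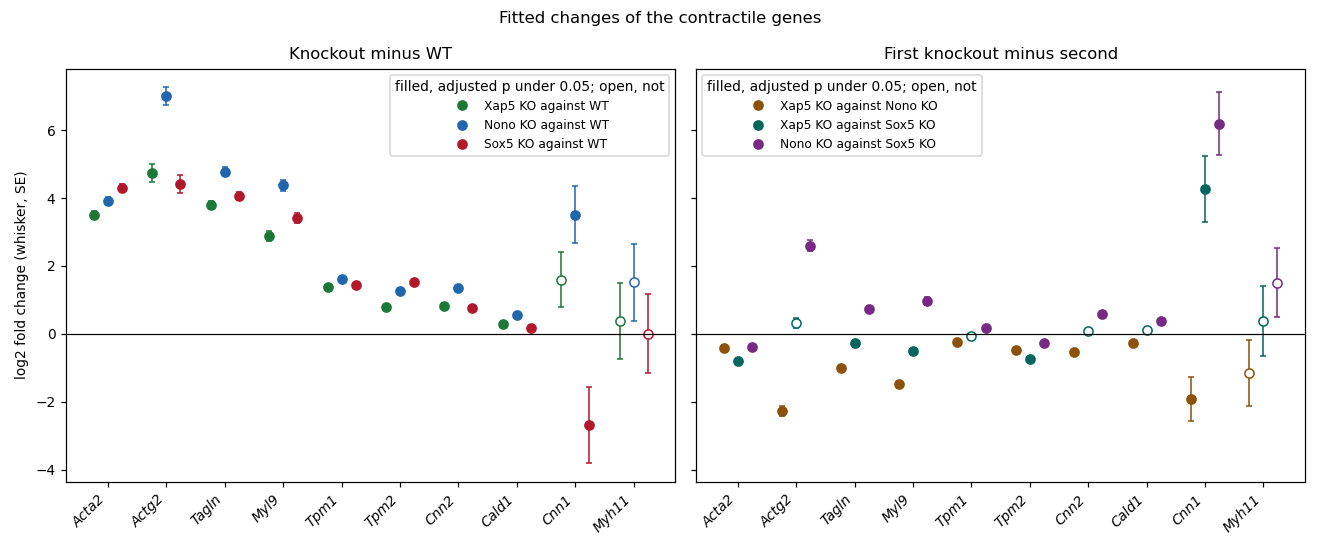
Fitted log2 fold change of each contractile gene with its SE, for the knockouts against WT (left) and for pairs of knockouts (right); filled points have an adjusted p under 0.05. Acta2, Actg2, Tagln and Myl9 lie between 2.89 and 7.00 against WT, Tpm1, Tpm2, Cnn2 and Cald1 between 0.18 and 1.61, and the right panel shows Nono KO above Sox5 KO for 7 called members and below it for Acta2 and Tpm2.

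The direct comparisons of knockouts placed Nono KO highest for most of the set. No clones are named, so these are differences between lines, in which the part of the lost gene cannot be told apart. Xap5 KO was lower than Nono KO in 9 of 10 members called and higher in 0, where 25.9% of all tested genes were called lower and 27.1% higher. Nono KO was higher than Sox5 KO in 7 members and lower in 2, Acta2 and Tpm2, where 30.9% and 32.6% of tested genes were called. Xap5 KO was lower than Sox5 KO in Acta2, Tagln, Myl9 and Tpm2, higher in Cnn1, and not called in the other 5, where 30.4% of tested genes were called lower and 31.1% higher. For Tagln, Cnn1, Cnn2, Myl9, Tpm1, Actg2 and Cald1, 7 of 10, every Nono KO library was above every other library, as it was for 11.8% of tested genes. Sox5 KO held that place for Acta2 and Tpm2, 2 of 10, against 19.7% of tested genes, and Xap5 KO for 0 of 10, against 9.57%.

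Compared per length, the genes changed rank. In WT the highest member was Cald1 at 169 ± 1.3 CPM per kilobase (SD, n = 2), ahead of Cnn2 at 109 ± 1.09, Tpm1 at 88.0 ± 6.72 and Acta2 at 70.9 ± 3.18. Acta2 was highest in each knockout, with 1396 ± 83.4 CPM per kilobase in Sox5 KO, 1065 ± 96.8 in Nono KO and 803 ± 98.5 in Xap5 KO (SD, n = 3). The next member per length was Tpm1 in Xap5 KO and Sox5 KO, at 228 ± 5.66 and 237 ± 3.33, and Cnn2 in Nono KO, at 278 ± 10.7. Lengths are those of the longest annotated transcript, so ranks of genes with many transcripts are approximate.

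Other genes of the contractile apparatus followed in part. Of 30 further smooth muscle and stress fibre genes, 25 were tested, with 15 higher, 7 lower and 3 not called in Xap5 KO, 20 higher, 2 lower and 3 not called in Nono KO and 15 higher, 5 lower and 5 not called in Sox5 KO. Among all tested genes the shares called higher were 23.2%, 23.5% and 30.6%, and those called lower 22.3%, 25.1% and 30.3%. Their median log2 fold changes were 0.61, 1.05 and 0.35, beside 0.00, -0.02 and -0.01 over all tested genes. Lmod1, leiomodin, which seeds actin filaments in smooth muscle, went from a mean of 0.919 ± 0.177 CPM in WT (SD, n = 2) to 28 ± 3.96 CPM in Sox5 KO, 39.4 ± 3.84 CPM in Nono KO and 16.9 ± 2.64 CPM in Xap5 KO, with n = 3 for each knockout. Its log2 fold changes were 4.19 (SE 0.196, adjusted p = 3.77e-13), 5.41 (SE 0.197, adjusted p = 4.89e-15) and 4.92 (SE 0.197, adjusted p = 1.54e-14) by edgeR's quasi-likelihood test. Des, desmin, the intermediate filament of muscle, had no count in WT, so it passed the filter only through knockout libraries. Against a floor of 3 counts per library, the rise was at least 35.0-fold for Xap5 KO, at least 27.1-fold for Sox5 KO and at least 15.1-fold for Nono KO, and all 3 were called. Its level stayed low, at most 3.86 CPM in any library.

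Members of that list also parted between knockouts. Mylk, the kinase that phosphorylates Myl9, rose by 1.5 (SE 0.189, adjusted p = 1.32e-06) in Xap5 KO and 1.78 (SE 0.191, adjusted p = 1.08e-07) in Nono KO and was at -0.23 (SE 0.192, adjusted p = 0.314) in Sox5 KO, not called, edgeR's quasi-likelihood test. Smtn, smoothelin, rose by 1.48 (SE 0.0886, adjusted p = 1.12e-11) in Nono KO, fell by 0.44 in Xap5 KO and was at 0.08 (SE 0.0861, adjusted p = 0.440) in Sox5 KO, not called, edgeR's test. Csrp2, a LIM protein of smooth muscle, fell from a mean of 46.9 CPM in WT to 8.24 CPM in Xap5 KO and 12.3 CPM in Sox5 KO, with log2 fold changes of -2.51 and -1.94, both called, and had 43.4 CPM in Nono KO, not called. Synpo2, synaptopodin-2, was at 2.04 to 2.56 CPM in WT, lower in Xap5 KO by a called -1.46, and higher in Nono KO and Sox5 KO by a called 1.39 and 1.57. Among relatives of the members within their protein families, 14 of 16 were tested, with 10 higher, 0 lower and 4 not called in Xap5 KO, 9 higher, 1 lower and 4 not called in Nono KO and 8 higher, 4 lower and 2 not called in Sox5 KO, beside the same shares of all tested genes, 23.2%, 23.5% and 30.6% higher and 22.3%, 25.1% and 30.3% lower. Myl6b, an essential myosin light chain, had -1.04 on the log2 scale in Nono KO, called, and -0.85 in Sox5 KO, also called, with -0.38 in Xap5 KO, not called.

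SRF itself rose, while its coactivators did not move as a group. Srf stood at 41.2 to 46.0 CPM in WT, 71.1 to 80.1 CPM in Sox5 KO, 70.2 to 75.2 CPM in Nono KO and 83.6 to 87.4 CPM in Xap5 KO. Its log2 fold changes were 0.97 (SE 0.0756, adjusted p = 1.20e-09), 0.75 (SE 0.0752, adjusted p = 4.09e-08) and 0.80 (SE 0.0755, adjusted p = 8.49e-09) by edgeR's quasi-likelihood test. Mrtfa rose by 0.35 (SE 0.0878, adjusted p = 0.00286) in Xap5 KO and 0.58 (SE 0.0882, adjusted p = 1.29e-05) in Nono KO and was at 0.03 (SE 0.0878, adjusted p = 0.818) in Sox5 KO, not called, edgeR's test. Mrtfb fell in all 3, by 0.20, 0.22 and 1.26 on the log2 scale. Myocd, the muscle-specific coactivator, had 0 counts in 10 libraries and 2 in 1 Nono KO library.

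Of the 20 tested genes of SRF, its coactivators and their regulators, there were 9 higher, 3 lower and 8 not called in Xap5 KO, 9 higher, 7 lower and 4 not called in Nono KO and 4 higher, 8 lower and 8 not called in Sox5 KO. The shares of all tested genes called in either direction were 45.5%, 48.6% and 60.9%. Limk2, a kinase that protects actin filaments by inactivating cofilin, rose by 1.47 (SE 0.0844, adjusted p = 8.51e-12) in Xap5 KO, and Rhob, a small GTPase upstream of stress fibres, by 1.11 (SE 0.0721, adjusted p = 4.43e-11) in Nono KO, edgeR's quasi-likelihood test. Rock2, a kinase downstream of RhoA, fell by 1.23 on the log2 scale in Sox5 KO, from a mean of 228 to 97.0 CPM, and rose by 0.34 in Nono KO, both called.

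TGF-beta is the main inducer of myofibroblasts, and a mixed list of its ligands and other inputs to that state (among them Yap1, Wwtr1, Tead1 and Pdgfb) and of matrix outputs went in both directions. All 20 genes of this list were tested, with 7 higher, 9 lower and 4 not called in Xap5 KO, 13 higher, 4 lower and 3 not called in Nono KO and 5 higher, 8 lower and 7 not called in Sox5 KO, and medians of -0.06, 0.37 and -0.07. Called in either direction were 16, 17 and 13 of 20, where 45.5%, 48.6% and 60.9% of all tested genes were called. Tgfb1, the ligand, was lower in every knockout, at 127 to 128 CPM in WT and 81.2 to 96.7, 67.9 to 79.1 and 68.3 to 82.0 CPM in the Xap5, Nono and Sox5 knockouts, with called log2 fold changes of -0.52, -0.81 and -0.80. Tgfb3 fell by 0.65 in Xap5 KO and 1.43 in Sox5 KO on the log2 scale and rose by 0.28 in Nono KO, all called. Postn, periostin, a matrix protein of activated fibroblasts, rose by 2.68 (SE 0.0757, adjusted p = 6.45e-17), 3.20 (SE 0.0778, adjusted p = 6.95e-18) and 3.06 (SE 0.0772, adjusted p = 1.32e-17) by edgeR's quasi-likelihood test. Col1a1, a collagen chain, rose by 0.87, 2.68 and 0.70, and Fn1, fibronectin, fell by 0.65 in Xap5 KO and 1.15 in Sox5 KO and rose by 0.55 in Nono KO, all called. Ccn2, a matricellular protein, rose by 0.55 (SE 0.145, adjusted p = 0.0123) and 0.46 (SE 0.144, adjusted p = 0.0259) in Xap5 KO and Nono KO and was at 0.08 (SE 0.143, adjusted p = 0.643) in Sox5 KO, not called, edgeR's test.

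**Figure D4:**
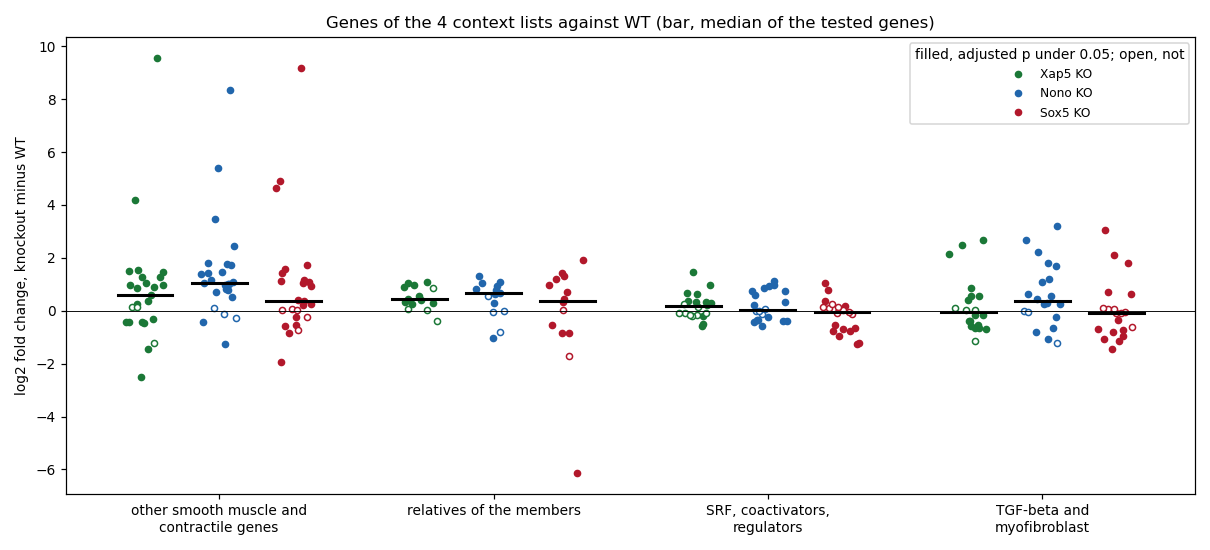
Log2 fold change against WT of every tested gene of the 4 context lists, by knockout; filled points have an adjusted p under 0.05 and bars are medians. The list of other smooth muscle genes has medians of 0.61, 1.05 and 0.35 in the Xap5, Nono and Sox5 knockouts. The 3 points above 8 are fitted values of Des and the point near -6 is Tagln3 in Sox5 KO, both against groups at or near 0 counts.

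Markers were read to see which cells the libraries resembled. All 10 fibroblast markers were present, and their summed level was 10639 to 10901 CPM in WT, 14591 to 15165 CPM in Sox5 KO, 28328 to 33817 CPM in Nono KO and 10319.6 to 10870.1 CPM in Xap5 KO. Col1a1, Col3a1, Thy1 and Lum differed more than 4-fold between groups, with Col1a1 at 1089.6 CPM in WT and 6973 CPM in Nono KO, and Col3a1 at 189 CPM in Xap5 KO and 4904 CPM in Nono KO. Thy1 was at 16.9 CPM in WT and 124 CPM in Nono KO, and Lum at 3.98 CPM in Sox5 KO and 202 CPM in Nono KO. Nono KO was thus highest for these 4 fibroblast genes as well as for 7 of the contractile genes. Of the other fibroblast markers, Col1a2 and Dcn also had their highest mean in Nono KO. Vim and S100a4 had theirs in Sox5 KO, Pdgfrb in Xap5 KO and Pdgfra in WT. The part of the fibroblast genes in the contractile genes, or the reverse, was not tested.

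Of 10 markers of vascular smooth muscle and pericytes beyond the set, Kcnj8 was at 0 in all libraries, Myocd, Abcc9 and Kcnmb1 had at most 3 counts in any library, and 5 reached 1 CPM in some library. Their sum was 162 to 172 CPM in WT, 72.2 to 88.0 CPM in Sox5 KO, 158 to 164 CPM in Nono KO and 113 to 140.1 CPM in Xap5 KO. Most of that sum was Cspg4, which had a mean of 164 CPM in WT and of 103, 117 and 51.8 CPM in the knockouts. The other 9 summed to 1.91 to 4.06 CPM in WT, 25.8 to 34.1 CPM in Sox5 KO, 38.5 to 46.0 CPM in Nono KO and 18.4 to 24.8 CPM in Xap5 KO, and every knockout library was above both WT libraries. That higher sum was mostly Lmod1, described above with Des, which is also among the 9. Rgs5 went the other way, with a mean of 1.14 CPM in WT and of 0.377, 0.722 and 0.298 CPM in the knockouts. Means of Mcam and Notch3 were above WT in some knockouts and below it in others. The part of such cells in the levels of the contractile genes was not tested. The 7 skeletal muscle, 4 endothelial and 5 epithelial markers summed to at most 0.635, 0.560 and 0.323 CPM in any library, and Myod1, Myf5, Tie1, Krt8 and Krt18 were at 0 in all. The 5 cardiac markers summed to 6.49 to 7.89 CPM in WT, 5.60 to 7.51 CPM in Xap5 KO, 1.02 to 1.60 CPM in Nono KO and 8.03 to 11.1 CPM in Sox5 KO. Myh6 and Tnni3 were at 0 in all. The 4 macrophage and leukocyte markers summed to 2.56 to 2.72 CPM in WT, 3.94 to 5.28 CPM in Xap5 KO and 2.58 to 3.96 CPM in Sox5 KO. Their sum was 7.75 to 11.6 CPM in Nono KO, where Ptprc was at 6.66 CPM and Adgre1 at 0.0494 CPM. The 4 adipocyte markers summed to at most 1.74 CPM. The 6 chondrocyte and osteoblast markers, mostly Sox9, summed to 416 to 417 CPM in WT and were lower in all 3 knockouts. Their sum was 204 to 225 CPM in Xap5 KO, 266 to 297 CPM in Nono KO and 172 to 205 CPM in Sox5 KO. Col2a1 stood at 1.26 CPM in WT and 11.2 CPM in Sox5 KO.

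Profiles over the 11 libraries were compared by the root mean square difference of log2 CPM after centring each gene on its mean. Outside the set, the genes closest to Acta2 were Lpl, lipoprotein lipase, at 0.30, Adm, adrenomedullin, at 0.34, and Cacnb2, a calcium channel subunit, at 0.39, beside a median of 1.59 over 13322 genes. Lpl had means of 11.2 CPM in WT, 381 CPM in Sox5 KO, 246 CPM in Nono KO and 192 CPM in Xap5 KO. Closest to Tagln were Lmod1 at 0.32, Ifi205, an interferon-activated gene listed at 0 in WT, at 0.33, and Adm at 0.43, beside a median of 1.72. Within the set, the closest pairs were Cnn2 and Tpm1 at 0.26, Cald1 and Cnn2 at 0.28 and Tpm1 and Tpm2 at 0.28. Next came Myl9 and Tagln at 0.34, Cnn2 and Tpm2 at 0.37, and Acta2 and Tagln at 0.44. Profiles were not scaled, so genes that change little can also come out close. These likenesses describe the same 11 libraries and carry no test.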

How the data were processed

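RNA of 11 libraries was sequenced, and the authors deposited 1 table of gene counts, per the file headers. It was treated as estimated counts rounded before deposit, since 3302 cells hold a 2 and 857 hold a 1. HISAT2 2.1.0, StringTie 1.3.3b, DESeq2 1.12.4 and the build GRCm39 are named in the submitters' processing notes without their roles. The annotation, the counting step and the use of strand are not given in the sources used here. All 11 sample columns were used, and every row named a gene.

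edgeR 4.0.16 (R 4.3.3) fitted a mean for each genotype to the whole table, after its expression filter (minimum count 10, minimum total 15) and TMM scaling. Its robust quasi-likelihood test gave p-values, with Benjamini-Hochberg adjustment over 13332 genes. SE is the log2 fold change divided by the root of its F. The common biological coefficient of variation was 10.6%. The script was tested on simulated data. Replicates differed beyond counting noise in every group (chi-square per degree of freedom 9.22 to 32.2). Floors of 3 counts cover counting error only.

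The members and lists were chosen with earlier results of these data known. Text names all members, the 2 largest called rises and falls of each list at a mean of at least 1 CPM, a fixed set of SRF, TGF-beta and cytoskeletal genes, the targeted genes, markers that varied over 4-fold, and the 3 genes closest in profile to Acta2 and to Tagln. Other genes were added after their values were seen. They were Tagln2, Myh9, Acta1 and Actc1 (non-muscle and striated relatives of the members), Pcsk7, the chromosome Y genes and the other fibroblast markers. Markers cited at or near 0 or as most of a sum (among them Cspg4, Ptprc, Adgre1 and Sox9) and Rgs5, Mcam and Notch3 were also added in this way. Lengths, overlaps and shared windows came from GENCODE M21 and promoters from RefSeq GRCm38.p6.

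Alternatives were DESeq2 1.42.0, limma-voom (limma 3.58.1), other scalings and filters, a 2-fold minimum, fits of the compared groups only, a replicate block and leaving out each library.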

Additional observations from a re-analysis of the deposited data

How the results depend on the processing

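Counts of called members were within 1.5 times their values under every alternative except a minimum log2 fold change of 1. With that minimum, 5 members were called in Xap5 KO against WT, 3 in Xap5 KO against Nono KO, 1 in Xap5 KO against Sox5 KO and 2 in Nono KO against Sox5 KO. Leaving out 1 library at a time gave 8 members in Xap5 KO and 9 in Nono KO against WT in all 11 fits, 7 to 9 in Sox5 KO against WT, 8 to 9 in Xap5 KO against Nono KO, 4 to 7 in Xap5 KO against Sox5 KO and 9 to 10 in Nono KO against Sox5 KO. Acta2, Actg2, Tagln, Myl9, Tpm1, Tpm2 and Cnn2 kept their calls against WT in all 11 of these fits for each knockout. Directions turned only in values that were not called. Myh11 in Sox5 KO against WT was -0.10 on library totals, -0.024 under limma-voom and from -0.36 to 0.29 over the left-out libraries. Myh11 in Xap5 KO against Nono KO was 0.22 under limma-voom, and Tpm1 in Xap5 KO against Sox5 KO was 0.0037 on library totals. The cause was not tested. With library totals the all-gene median against WT moved to -0.18 for Nono KO and -0.12 for Sox5 KO. A minimum of 10 counts in every library left 8 members tested, without Cnn1 and Myh11. Under the replicate block, 8 members were called in Sox5 KO against WT, since Cnn1 was at -2.69 with an adjusted p of 0.0712, and the other 59 member calls were unchanged. Of 15 pairs of libraries with the same replicate number, 0 had deviations correlated above 0.1 (range -0.02 to 0.05). Even so, 10 of 11 libraries correlated best with one of their own number. The labels do not say what a shared replicate number stands for. Low counts limit what Cnn1 and Myh11 can show, and having 2 WT libraries limits every contrast with WT.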
